A study of Mus musculus with 6 samples.

Results

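The microRNAs of the Hox clusters taken from the card were mmu-miR-10a, mmu-miR-10b and mmu-miR-196b. They were taken by assay name, by a rule that uses no measured value, but with earlier results of these data known. They are 3 of the 375 microRNA assays on the card, and each is read by 1 assay. The tissue was the microdissected right dentate gyrus, the entrance station of the hippocampus in the forebrain, from 6 male C57/Black6J mice aged 6 to 8 weeks. Injections of saline were given to 3 mice, and repeated low-dose kainic acid, an agonist of glutamate receptors that provokes status epilepticus (KA-SE), to the other 3, each mouse giving 1 library 72 h later. The study kept only kainic acid mice with prolonged severe seizures, and the dissected tissue is a mixture of granule neurons, glia and vessels.

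Hox genes are transcription factors that lie in clusters and give the hindbrain, spinal cord and trunk their identity along the head to tail axis, while the developing forebrain lies in front of their territory. The clusters also hold microRNA genes. The miR-10 genes sit beside the Hox4 genes and the miR-196 genes sit among the Hox9 and Hox10 genes, and miR-196 is known in mice for cleaving the mRNA of Hoxb8. A microRNA finds its mRNA targets mainly through its seed, bases 2 to 8 from the 5′ end.

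The 5p arms of the 3 members are shown because miR-10a and miR-10b differ so little in sequence and so much in signal. The assay names carry no arm, and the 5p arm was taken as the arm meant. Sequences and coordinates are from RefSeq on GRCm38.p6, where all 3 were matched, and capitals mark the seed.
mmu-miR-10a-5p: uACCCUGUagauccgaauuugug
mmu-miR-10b-5p: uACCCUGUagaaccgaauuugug
mmu-miR-196b-5p: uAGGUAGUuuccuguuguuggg
miR-10a and miR-10b share their seed with no other of the 1679 mature mouse names in that table, and 22 of their 23 bases are identical. The difference is U12A, counted from the 5′ end with the base of miR-10a first. miR-196b shares its seed with miR-196a alone, from which it differs by C12A, and mouse miR-196a was not analysed here.

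The hairpin of miR-10a lies at chr11:96317165-96317274 on the plus strand, within the annotated span of Hoxb3 and next to Hoxb4. That of miR-10b lies at chr2:74726070-74726137 on the plus strand, within the spans of both Hoxd3 and Hoxd4. That of miR-196b lies at chr6:52230081-52230165 on the minus strand, in the interval from Hoxa9 to Hoxa10 and inside no protein-coding gene. Whether a hairpin is exonic or intronic in a given transcript was not determined, because the gene table used holds spans only.

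Of the 3 microRNAs, miR-10a was measured in every library, miR-10b was below the detection limit in all but 1 library, and miR-196b was below it in each library. Each assay yields a Ct, the number of PCR cycles needed before fluorescence passes a threshold. A lower Ct means more RNA, a Ct of 40 stands for no amplification, and a microRNA was taken as detected at a Ct below 35, the limit of the study's methods. Over the card 281 microRNA assays were below 35 in all 6 libraries, 34 in none, and 60 in 1 to 5 libraries. Because primers and probes differ in efficiency, the order of Ct between assays follows abundance only roughly.

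The raw Ct of mmu-miR-10a was 24.6, 28.2 and 25.9 in saline replicates 1, 2 and 3 and 24.1, 25.004 and 25.3 in KA-SE replicates 1, 2 and 3. The highest signal was that of KA-SE replicate 1 and the lowest that of saline replicate 2, and the groups overlapped. By mean Ct, miR-10a was in place 200 of the 281 microRNAs detected throughout, counted from the lowest Ct. Its mean Ct of 25.5 compares with a median of 23.8 and quartiles of 21.2 and 26.0 over those microRNAs. Within single libraries its place ran from 184 in KA-SE replicate 1 to 213 in saline replicate 2.

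The raw Ct of mmu-miR-10b was 40, 40 and 37.6 in saline mice 1 to 3 and 34.4, 40 and 40 in KA-SE mice 1 to 3. It therefore amplified in 2 of 6 libraries, 1 of each group, and passed the limit of 35 in KA-SE replicate 1 alone. In that library its signal came 10.3 cycles after that of miR-10a, and in saline replicate 3 it came 11.7 cycles after. In the libraries without amplification, the distance from miR-10a to the limit of 35 was 6.78 cycles in saline replicate 2 and from 9.67 to 10.4 cycles in the others.

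mmu-miR-196b did not amplify in the 3 saline libraries, nor in KA-SE replicates 2 and 3. In KA-SE replicate 1 it had a Ct of 36.1, beyond the limit and 12.01 cycles after miR-10a. The only signals of miR-10b below 35 and of miR-196b at all thus came from the same mouse, the library in which miR-10a was also earliest. KA-SE replicate 1 was the library with the most detected microRNA assays, 321, against 297 in saline replicate 2 and 306 to 319 in the others. Amplification in exactly 1 library was not particular to miR-196b. It occurred for 14 of the 375 microRNA assays, of which 4 did so in KA-SE replicate 1, and the Ct of the 14 ran from 21.6 to 37.2 with a median of 30.1. With 1 library below the limit for miR-10b and 0 for miR-196b, a fold change between the groups could not be measured for either.

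**Figure D1:**
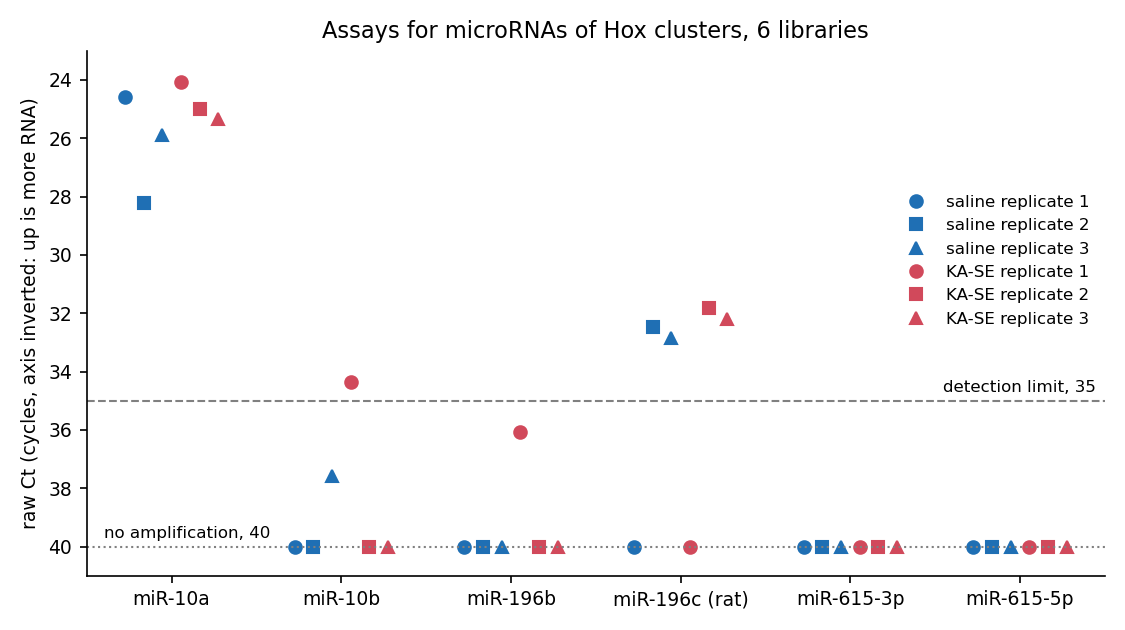
Raw Ct in cycles (axis inverted, so that up is more RNA) of the 6 assays for microRNAs of Hox clusters, 1 point for each library, with saline in blue and KA-SE in red. The dashed line is the detection limit of 35 and the dotted line, at 40, is no amplification. miR-10a lies between 24.1 and 28.2 in every library, whereas miR-10b has 1 point above the dashed line, at 34.4, and miR-196b none.

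Among the other assays of Hox cluster microRNAs, those of miR-615 gave no signal and that of rat miR-196c gave more than miR-10b or miR-196b. miR-615, which is encoded in the Hoxc cluster, gave no amplification in any library with either of its arms. The assay for the rat microRNA miR-196c, named as a member of the miR-196 family, amplified at 32.5 and 32.9 in saline replicates 2 and 3 and at 31.8 and 32.2 in KA-SE replicates 2 and 3. It gave no signal in replicate 1 of either group, and so it was detected in 2 of 3 mice of each group. KA-SE replicate 1, the library with signal for miR-196b, was thus 1 of those without signal for rat miR-196c. Of the 5 other Hox cluster assays than that of miR-10a, 0 were detected in all 6 libraries.

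All 5 neuronal markers were detected in every library, with miR-9, a microRNA of neural progenitors and neurons, at 14.0 to 17.7 and miR-218 at 14.5 to 18.9. Markers of other cell types were also present. They were detected throughout for 4 of 4 markers of endothelium and vessel wall (miR-126-3p at 16.4 to 19.0 and miR-145 at 17.3 to 18.9), 5 of 6 of choroid plexus and ependyma (miR-204 at 16.2 to 18.2 and miR-34b-3p at 20.7 to 22.0) and 4 of 4 blood cell markers on the card (miR-150 at 17.4 to 18.5 and miR-223 at 23.3 to 25.5). The muscle microRNA miR-1, at 23.8 to 28.0, covered nearly the same range of Ct as miR-10a, and miR-133a was at 21.7 to 24.0. In level over U6, the median log2 fold change was 1.08 for the neuronal markers (5 of 5 positive), 0.99 for choroid plexus and ependyma (4 of 5), 0.60 for endothelium and vessel wall (4 of 4), 0.38 for blood cells (3 of 4) and 0.41 for muscle (3 of 4). Over all 281 microRNAs detected in every library, 245 (87.2%) were positive, with a median of 0.62. The part of any of these cell types in the signal of miR-10a was not tested.

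miR-10a came up after the reference RNA U6 by 11.7, 14.3 and 12.49 cycles in saline replicates 1, 2 and 3 and by 11.3, 11.4 and 11.995 cycles in KA-SE replicates 1, 2 and 3. Saline replicate 1 lay among the KA-SE mice, and saline replicates 2 and 3 lay later than all of these. The saline mean was 12.84 ± 1.36 cycles (SD, n = 3) and the KA-SE mean 11.6 ± 0.375 cycles (SD, n = 3), so that miR-10a came 1.27 cycles earlier after KA-SE. The groups overlapped, and an exact permutation test (two-sided) gave p = 0.2. With 3 mice per group that test cannot go below 0.1. In tissue samples of this kind, a change in the number of cells that hold a microRNA cannot be told apart from a change in its amount per cell.

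In the fit over all 281 microRNAs detected throughout, the log2 fold change of miR-10a was 1.27 (standard error 0.71, 95% interval from -0.40 to 2.94, adjusted p = 0.556 from limma). On the linear scale this is a 2.41-fold higher level with an interval that includes no change. Of the members 1 of 3 was tested, and 0 of 1 passed the call rule (adjusted p below 0.05 with a change of 1.5-fold or more), where the share called over all 281 was 0%. At an unadjusted p under 0.05 limma gave 8 of the 281, or 2.85%, and the methods' t-test gave 6, and miR-10a was not among those of limma (unadjusted p = 0.117). Most microRNAs had positive values in this fit, 245 of 281, and their median was 0.62 with quartiles of 0.29 and 1.08. miR-10a, in place 48 from the highest, lay above the upper quartile. The groups did not overlap, with all KA-SE mice higher, for 19.2% of the microRNAs tested, and miR-10a was not one of them.

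**Figure D2:**
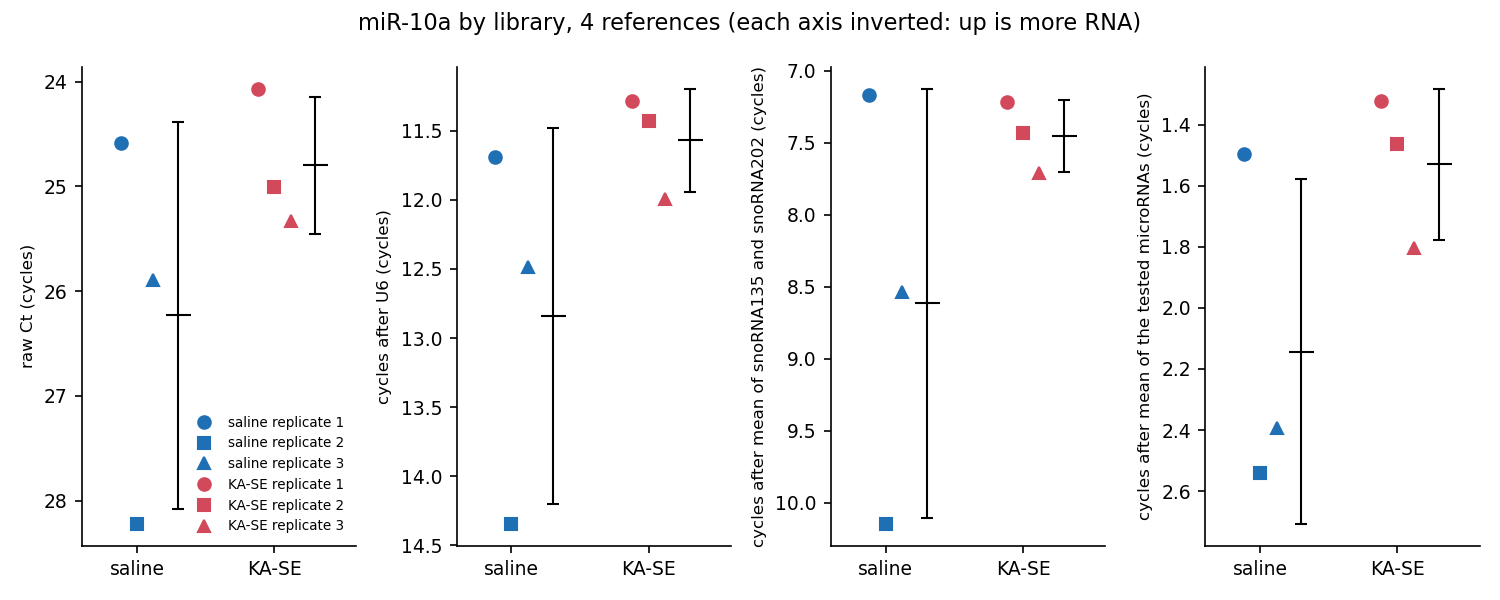
miR-10a by library in raw Ct and in cycles after U6, after the mean of snoRNA135 and snoRNA202, and after the mean of the 281 microRNAs detected throughout (4 panels, axes inverted and with different ranges). Points are single mice and bars are group means with SD, n = 3. In each panel saline replicate 1 lies within or next to the KA-SE points and saline replicates 2 and 3 lie below them.

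The position of saline replicate 1 among the KA-SE mice held with other references. After the mean of the small nucleolar RNAs snoRNA135 and snoRNA202, miR-10a came up by 7.17, 10.1 and 8.53 cycles in the saline and by 7.22, 7.43 and 7.71 cycles in the KA-SE replicates. Here saline replicate 1 had the highest level of all 6 libraries. Group means were 8.62 ± 1.5 and 7.45 ± 0.25 cycles (SD, n = 3 each, exact permutation test, p = 0.4). Relative to the mean of the 281 microRNAs, miR-10a lay 1.496, 2.54 and 2.39 cycles later in the saline and 1.32, 1.46 and 1.80 cycles later in the KA-SE replicates. In this measure saline replicates 2 and 3 were near each other. Here the averages, 2.14 ± 0.565 for saline and 1.53 ± 0.248 for KA-SE (SD, n = 3 each), were 0.61 cycles apart. That difference was slightly more than the larger SD. Even so, the groups overlapped (exact permutation test, p = 0.2).

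miR-10a varied among the saline mice more than the median microRNA did. The SD of its level over U6 in saline was 1.36 cycles, in place 85 of 281 from the highest, with a median of 0.98 over all. In KA-SE its SD was 0.375 cycles, in place 61 of 281 from the highest, with a median of 0.20 over all. The smaller spread in KA-SE than in saline thus held for the median microRNA as well. In saline replicate 2, which was late for most microRNAs, miR-10a came 2.99 cycles after the mean of the other two saline libraries, against a median of 2.23 and quartiles of 1.53 and 3.19 cycles over the 281. In saline replicate 3 it came 1.31 cycles after saline replicate 1, against a median of 0.20 cycles, which put it in place 31 of 281. These comparisons between saline libraries were not planned. Without saline replicate 2 the log2 fold change over U6 was 0.52 (95% interval from -0.34 to 1.38, adjusted p = 0.636 from limma), with a median over all microRNAs of 0.12. Without saline replicate 1 it was 1.85 (95% interval from 0.18 to 3.51, unadjusted p = 0.0338, adjusted p = 0.433 from limma), with a median over all of 0.76. In that setting 31 of the 281 microRNAs were higher and 1 lower at an unadjusted p under 0.05 from limma, and 0 were called.

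The relatives of miR-10 outside the Hox clusters are miR-99a, miR-99b and miR-100, and more distantly miR-125a and miR-125b, which are encoded in clusters with let-7 genes. miR-99a, miR-99b and miR-100 are shown for the runs of bases they share with miR-10a, which are shorter in miR-99b, with the seed in capitals.
mmu-miR-99a-5p: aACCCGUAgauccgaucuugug
mmu-miR-99b-5p: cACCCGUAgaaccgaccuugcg
mmu-miR-100-5p: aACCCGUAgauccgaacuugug
Their common seed is held by these 3 mature names alone and differs from that of miR-10. The longest run shared with miR-10a is guagauccgaa in miR-100, of 11 bases, and guagauccga in miR-99a, of 10 bases, while miR-10b shares its first 11 bases with miR-10a. In miR-99b the longest run shared with miR-10a is of 5 bases. Whether the assays read each other's targets was not tested.

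These relatives came up earlier than miR-10a in every library. The raw Ct was 18.0 to 19.7 for miR-99a, 18.1 to 19.6 for miR-99b, 18.0 to 20.01 for miR-100, 18.4 to 19.9 for miR-125a-5p and 15.7 to 17.0 for miR-125b-5p. Their log2 fold changes over U6 were 0.19, 0.32, 0.22, 0.10 and -0.06, all below the median of 0.62 over the microRNAs tested. None of the 5 was called (smallest adjusted p = 0.671 from limma, for miR-99b). With miR-10a these were 6 tested assays, of which miR-10a had the highest log2 fold change. The 3p arms of miR-125a and miR-125b, also tested, had log2 fold changes of 0.39 and 0.53. Both values were above those of the 5 relatives and below that of miR-10a.

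The gap between 2 assays of 1 library needs no reference RNA. miR-10a came after the mean of miR-99a, miR-99b and miR-100 by 5.98, 8.44 and 7.32 cycles in saline mice 1 to 3 and by 6.06, 6.11 and 6.495 cycles in KA-SE mice 1 to 3. The KA-SE mice lay within 0.433 cycles of each other, while saline replicates 2 and 3 were later and saline replicate 1 was earlier than all of them. A smaller spread in KA-SE was not particular to miR-10a. Over U6, the median SD of the 281 microRNAs was 0.98 cycles in saline and 0.20 in KA-SE. The mean gaps of miR-10a were 7.25 ± 1.2 cycles in saline and 6.22 ± 0.24 cycles in KA-SE mice (SD, n = 3 each). The difference was 1.02 cycles, with overlapping groups (two-sided exact permutation test, p = 0.4). For the 5 relatives one by one, the difference ran from 0.945 cycles for miR-99b to 1.33 cycles for miR-125b-5p (exact permutation tests, adjusted p = 0.4 for each over the 5 relatives). This comparison was chosen after the values were seen.

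**Figure D3:**
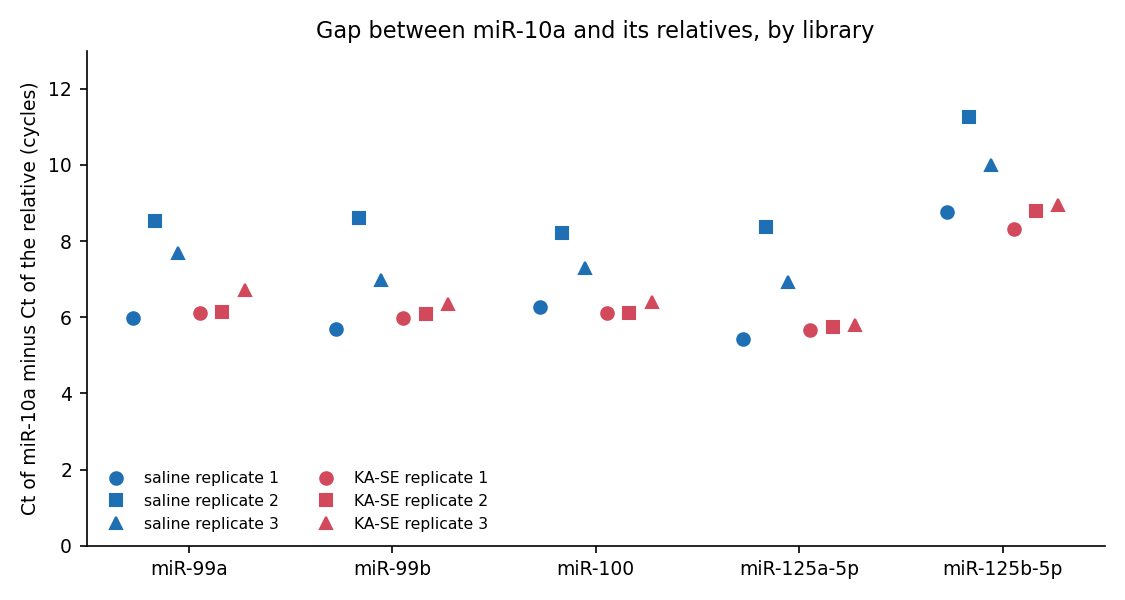
Ct of miR-10a minus Ct of each of 5 relatives outside the Hox clusters, in cycles, 1 point for each library, with saline in blue and KA-SE in red. For every relative the 3 KA-SE points lie close together and the saline points are spread, with saline replicate 2 highest, for example 8.21 cycles for miR-100 and 11.3 cycles for miR-125b-5p. The median SD over U6 of all microRNAs tested was also lower in KA-SE, 0.20 against 0.98 cycles.

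**Figure D4:**
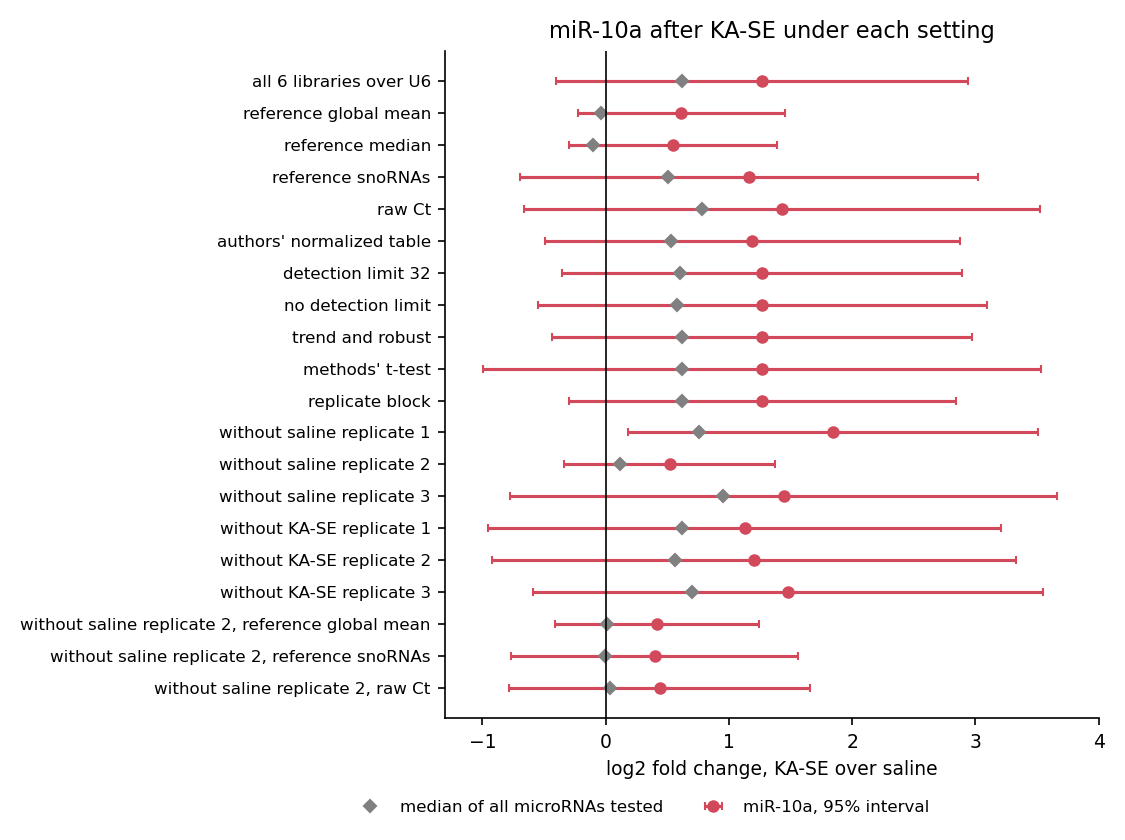
Log2 fold change of miR-10a, KA-SE over saline, under each setting, with 95% intervals (red), beside the median of all microRNAs tested (grey diamonds). The estimates run from 0.40 to 1.85, and without saline replicate 1 the interval lies above 0, from 0.18 to 3.51 (adjusted p = 0.433 from limma).

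The microRNAs whose pattern over the 6 libraries was most like that of miR-10a, in level relative to the mean of the 281 microRNAs, were read by the rat assay for miR-450a (Pearson r = 0.984), miR-665 (r = 0.934) and the rat assay for miR-532-5p (r = 0.915). These are descriptions over 6 libraries, within each of which all assays share 1 mouse's RNA and 1 card, and 4 of 280 microRNAs had an r above 0.9. Without saline replicate 2 the values were 0.986, 0.898 and 0.852. The rat miR-450a assay had Ct values of 29.3, 34.997 and 33.0 in the saline and 29.0, 29.8 and 31.1 in the KA-SE replicates, so that it too was latest in saline replicates 2 and 3. Its value in saline replicate 2 lay just inside the limit. For miR-99a, miR-99b and miR-100 the r with miR-10a was -0.910, -0.667 and -0.740, where the median over the 280 microRNAs was -0.279.

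The authors also deposited Ct relative to a reference, and the Hox cluster members differ in how these values relate to the raw ones. For miR-10a the deposited value equalled the raw Ct minus 1 constant per library, to within 0.0015 cycles, in all 6 libraries. The constants, 12.7 to 13.8 cycles, lay near the Ct of U6. For miR-10b the deposited value was lower than that difference by 1.94 cycles in saline replicate 3 and by 1.88 cycles in KA-SE replicate 1, and for miR-196b by 0.884 cycles in KA-SE replicate 1. Each constant was taken as 40 minus the highest deposited value of its library. The match of libraries without amplification to 40 minus the constant thus rests on that choice. Among the microRNAs detected throughout, the deposited value equalled the raw Ct minus the constant for 31.0% to 35.6% in the saline libraries and for 11.03% in each KA-SE library. For miR-99a the deposited values lay 0.775 to 0.851 cycles below that difference in saline and 0.252 to 0.267 cycles below it in KA-SE mice. Its log2 fold change was thus -0.45 in the deposited normalized table and 0.19 from raw Ct over U6, while that of miR-10a was 1.19 and 1.27.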

How the data were processed

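MicroRNAs of the right dentate gyrus of 6 mice were read on 1 TaqMan card per mouse, from 800 ng of total RNA. The authors deposited 3 tables, of raw Ct (40 for no amplification), of Ct normalized to a reference RNA (RNU6B in the methods), and of the fold change of each KA-SE library over saline, a ratio that was not used here. Each column was assigned to the mouse its header names. Replicates are separate mice.

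No assay is named RNU6B, so a level is the Ct of U6 (MammU6) minus that of the microRNA, a log2 scale where PCR doubles its product every cycle. The 281 mouse and rat microRNA assays detected throughout (Ct below 35) were fitted with limma 3.58.1 in R 4.3.3 without a block, with Benjamini-Hochberg adjustment. The fit was tested on simulated levels with independent noise for each assay, without a shift shared by a whole library. That test therefore does not cover the lateness of saline replicate 2. For single values, exact permutation tests (two-sided) were used (SciPy 1.17.1). The planned comparison of Ct gaps between members was not possible, because 1 member alone was detected in all libraries. Alternatives were other references, detection limits and tests, the authors' normalized table, the replicate number as a block, and each library left out. Named microRNAs are the members, other Hox cluster assays, relatives of miR-10, up to 2 markers of lowest Ct for each of 5 cell type lists, and the 3 microRNAs most correlated with miR-10a. The gap of miR-10a to its relatives and the further settings without saline replicate 2 were added after values were seen. The rankings of spread and the comparisons between single saline libraries were not planned either. The members and lists were chosen with earlier results of these data known. Precision is limited by the number of mice, as a Ct has no read count. Sequences are from RefSeq, and the deposited tables name no genome build.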

Additional observations from a re-analysis of the deposited data

Results flagged for a closer look

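A signal for mmu-miR-10b stood out at a Ct of 34.4 in KA-SE replicate 1, because this assay is outside the groups' comparison and its saline values were 40, 40 and 37.6. mmu-miR-196b likewise gave a signal in that library alone, with a Ct of 36.1, while no saline library amplified. The plant microRNA ath-miR159a, which the card carries as a negative control, had a Ct as low as 18.8 in KA-SE replicate 3, with 19.5 in KA-SE replicate 2 and 21.7 in saline replicate 2, and no amplification in the other 3 libraries. KA-SE replicate 1, which held the signals of miR-10b and miR-196b, was among the libraries without signal for ath-miR159a. Every library with signal for ath-miR159a also had signal for rat miR-196c, which amplified in saline replicate 3 besides. Neither of these assays amplified in replicate 1 of either group. What gave these signals was not tested.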

How the results depend on the processing

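In each of 19 alternatives miR-10a had a positive log2 fold change and was not called. The values ran from 0.40 to 1.85, with adjusted p from 0.303 to 0.998 (limma or t-test). Other detection limits, other tests and the replicate block leave its estimate at 1.27 by construction, so that its sign could not change in these. Leaving out each library in turn gave 0.52 (without saline replicate 2) to 1.85 (without saline replicate 1). Added after seeing the data, the values without saline replicate 2 were 0.42 relative to the global mean, 0.40 relative to the snoRNAs and 0.44 in raw Ct. The gap between miR-10a and its relatives outside the Hox clusters kept its direction without each library, with a difference of 0.427 (without saline replicate 2) to 1.66 cycles (without saline replicate 1). The count of microRNAs called was 0 in each alternative but 1, and 0 without each library. With no detection limit, where all 375 assays are tested and a Ct of 35 or more is set to 35, it was 1, miR-296-3p, which is no member. With the replicate number as a block the log2 fold change of miR-10a was 1.27 and 0 microRNAs were called. At an unadjusted p under 0.05 there were 33, against 8 without the block. In the block fit the standard error was 0.80 for miR-10a and for each of its relatives alike, whereas it differed between them without the block. The counts of 33 and 8 thus rest on different estimates of the variance and do not measure pairing. The deviations of same-numbered mice correlated at 0.189, 0.236 and 0.047. Every saline mouse correlated best with its own number, but saline replicate 3 only at 0.047, against -0.048 and -0.0025 with KA-SE replicates 1 and 2. Deviations from the mean of 3 mice are not independent of each other, and the design states no pairing. Pairing was not tested. With no detection limit, miR-10b and miR-196b had log2 fold changes of 0.05 and -0.16 (adjusted p = 0.938 and 0.810 from limma), but this setting puts 35 in place of the Ct in 5 and 6 of the 6 libraries, so these values come largely from U6 and are no measured change.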
